A study of Mus musculus with 48 samples.

Results

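The insulin, growth hormone and insulin-like growth factor (IGF) axis of liver is described here through 10 genes taken from a given list and matched by Ensembl identifier: Igf1, Igfbp1, Igfbp2, Igfbp4, Ghr, Insr, Irs1, Irs2, Socs2 and Foxo1. All 10 were listed in all 48 libraries, among 11306 genes listed in either assay. The libraries came from livers of male C57BL/6JRj mice aged 11 to 12 weeks and kept for 2 weeks under 12 h of light and 12 h of darkness. Every 2 h over 1 day, at 12 zeitgeber times (ZT, hours after lights on), 2 pools of 2 livers each were lysed with cycloheximide, which holds ribosomes on their mRNA. Each of the 24 lysates gave a library of ribosome footprints (the mRNA stretches that ribosomes shield from RNase I) and a library of total RNA depleted of ribosomal RNA with Ribo-Zero. The labels name no mutation and no treatment of the animals, and when the mice ate is not given in the sources used here.

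Growth hormone acts on hepatocytes through its receptor GHR, which signals by JAK2 and STAT5 to Igf1, the gene of the main circulating growth factor made by liver, and to Socs2, a feedback inhibitor of the same receptor. Insulin acts through its receptor INSR, the docking proteins IRS1 and IRS2 and the kinase AKT, which keeps the transcription factor FOXO1 out of the nucleus. FOXO1 raises transcription of Igfbp1, whose product binds IGFs in plasma, and of Irs2, so that transcripts of both genes fall in liver after a meal and rise in fasting.

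The motif CAAAACA is known from the Igfbp1 promoter as an insulin response sequence bound by FOXO proteins, so the promoters that held it are shown first. RefSeq promoter windows on GRCm38.p6, each 250 bases before to 50 bases after a transcript's start, were at hand for 8 of the 10 genes (10 windows). On both strands CAAAACA was found in windows of 3 of them, Igfbp1, Irs1 and Irs2, and in 6.28% of all 32851 windows. The E-box CACGTG, which the clock factors CLOCK and BMAL1 bind, was found in Igfbp2, Irs1 and Irs2, and in 7.15% of all windows. The 250 bases before the start are given 5′ to 3′ on the strand of the gene, with both motifs in capitals. A copy of CAAAACA on the other strand reads as its reverse complement. They lie at chr11:7197537-7197786 (+ strand) for Igfbp1, chr8:11008930-11009179 (- strand) for Irs2 and chr1:82291440-82291689 (- strand) for Irs1.
Igfbp1: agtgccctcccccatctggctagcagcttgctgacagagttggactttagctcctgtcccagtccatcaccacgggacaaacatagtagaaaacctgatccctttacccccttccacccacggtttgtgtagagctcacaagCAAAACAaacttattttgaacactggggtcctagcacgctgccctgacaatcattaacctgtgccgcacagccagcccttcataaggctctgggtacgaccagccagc
Irs2: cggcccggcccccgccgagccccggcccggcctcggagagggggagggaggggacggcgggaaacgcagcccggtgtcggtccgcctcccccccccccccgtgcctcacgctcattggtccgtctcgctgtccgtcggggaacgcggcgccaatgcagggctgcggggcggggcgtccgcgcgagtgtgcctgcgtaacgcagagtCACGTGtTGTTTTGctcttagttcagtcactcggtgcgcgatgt
Irs1: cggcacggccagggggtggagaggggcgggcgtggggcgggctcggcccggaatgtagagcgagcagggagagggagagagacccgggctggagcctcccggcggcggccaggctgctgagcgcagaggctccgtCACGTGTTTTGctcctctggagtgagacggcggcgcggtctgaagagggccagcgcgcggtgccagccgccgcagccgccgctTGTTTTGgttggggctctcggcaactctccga

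In Igfbp1 the insulin response motif ran over bases -108 to -102 from the start, and no E-box was present. In Irs2 the E-box (-44 to -39) stood next to the insulin response motif on the other strand (-37 to -31). These positions are from the RefSeq start, which lies upstream of the GENCODE start of Irs2 at chr8:11008458. In Irs1 the E-box (-115 to -110) overlapped 1 copy of that motif (-111 to -105), and another copy lay at -32 to -26. The FOXO motif GTAAACA (3.65% of all windows), the STAT motif TTCNNNGAA (8.30%) and the cyclic AMP element TGACGTCA (1.79%) were in none of the windows of the 8 genes. These are matches of letters in a short window and say nothing of binding.

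On the listed genes, footprint libraries had roughly 13.9 to 43.0 M reads (median 17.9 M) and total RNA libraries roughly 3.88 to 23.8 M (median 11.8 M), as read from the step between low values. Transcripts of 10 of 10 hepatocyte markers were present in both assays, with summed levels of 90851 to 153146 RPKM in footprints and 66255 to 101847 RPKM in total RNA. RPKM is the number of reads scaled by gene length and library size. Exocrine pancreas transcripts exceeded 10 times the median of all pools in 6 pools, both of ZT2, replicate 1 of ZT4 and ZT6, and replicate 2 of ZT8 and ZT16. Their sum over 11 of 14 markers listed in both assays ran from 4.22 to 1310 RPKM in footprints and from 5.78 to 880 RPKM in total RNA, while 0 of 7 endocrine pancreas markers (insulin and glucagon genes among them) were listed. Because these are whole-liver lysates, fewer cells of a type and less RNA per cell cannot be told apart.

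The 10 genes split by size of daily change, taken as the fold between the highest and lowest time point means. It was 45.2 for Igfbp1 and 8.90 for Irs2 in footprints, and 46.0 and 9.92 in total RNA. For the other 8 genes it ran from 1.27 to 3.17 in footprints and from 1.30 to 2.91 in total RNA. Each mean rests on 2 pools, so these folds also hold differences between replicate pools. Folds between single libraries, which are not averaged over pools, were wider. Igfbp1 and Irs2 spanned 149-fold and 11.7-fold in footprints, and 108-fold and 22.4-fold in total RNA, between their lowest and highest library. The other 8 genes spanned 1.46-fold to 4.63-fold in footprints and 1.37-fold to 4.96-fold in total RNA, with Socs2 the widest of those 8 in both assays. A 24 h curve was fitted to log2(RPKM + 0.1) of the 24 libraries of an assay, and rhythmic genes were those with an adjusted p under 0.05 (limma's moderated F test, Benjamini-Hochberg over 9445 genes) whose fitted curve spanned at least 1.5-fold. By that rule 1 of the 10 genes, Irs2, was called in footprints, where 16.7% of all tested genes were called. In total RNA 3 of 10 were called, Irs2, Irs1 and Igfbp2, where 15.8% of all genes were called. Without the minimum fold the counts were 5 and 6 of 10, against 45.0% and 43.1% of all genes. The median fitted fold of the 10 genes was 1.36 in footprints and 1.43 in total RNA, and that of all tested genes was 1.23 in footprints and 1.25 in total RNA.

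**Figure D1:**
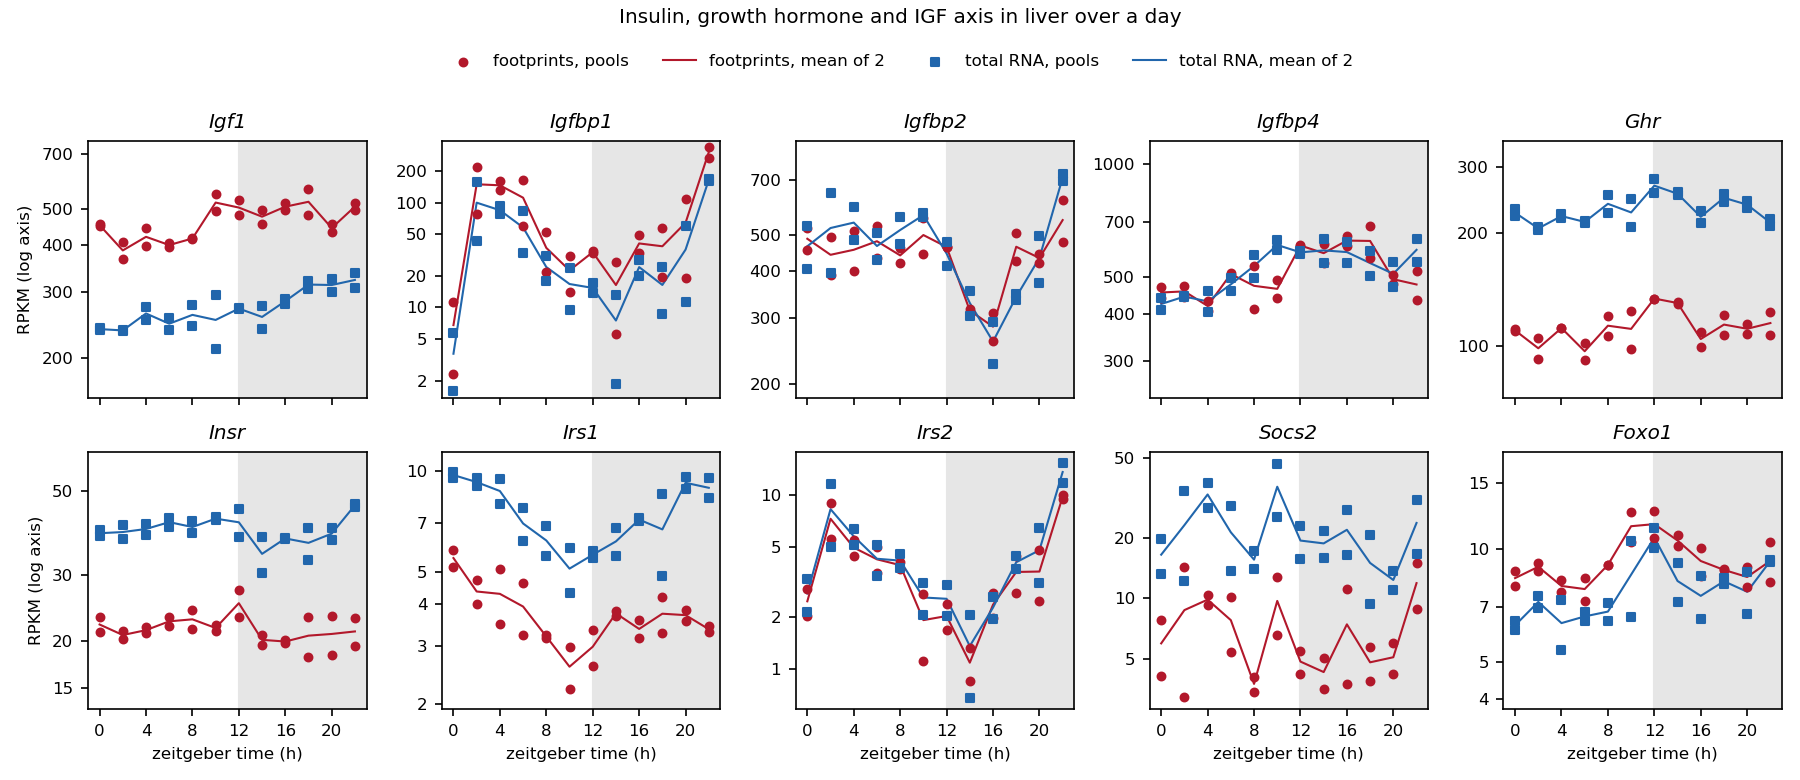
Level of each of the 10 genes in RPKM (log axis) against zeitgeber time, with a point for every pool (circles, footprints; squares, total RNA), lines through the mean of 2 pools and the dark phase shaded. Igfbp1 and Irs2 fall at ZT0 between high values at ZT22 and ZT2, whereas Insr and Ghr stay within 1.37-fold to 1.53-fold over all libraries of an assay.

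With 12 time points entered as a factor instead of a curve, 7 of 10 genes were called in footprints (Igf1, Igfbp1, Igfbp2, Igfbp4, Irs1, Irs2 and Foxo1), where 26.7% of all genes were called. In total RNA 7 of 10 were called (Igf1, Igfbp1, Igfbp2, Igfbp4, Ghr, Irs1 and Irs2), where 37.0% of all genes were called. The calls of Igfbp1 and Irs2 held in both assays whichever single pool was left out, with adjusted p (limma) between 0.000258 and 0.0171. Those of Irs1 and Foxo1 in footprints were lost without 16 and 14 of the 24 pools taken 1 at a time, with adjusted p up to 0.131 and 0.0925. Those of Igf1 and Ghr in total RNA were lost without 18 and 16 of them, with adjusted p up to 0.0970 and 0.109, and that of Igfbp2 in footprints without ZT16 replicate 1 (0.0604). Irs1 kept its footprint call without either pool of ZT4, ZT6 or ZT18, or replicate 1 of ZT10 or ZT12. Foxo1 did so without either pool of ZT8, ZT16 or ZT22, replicate 1 of ZT6, ZT12 or ZT20, or replicate 2 of ZT10. Igf1 kept its total RNA call without either pool of ZT8, ZT10 or ZT14, and Ghr without either pool of ZT8, ZT10 or ZT20, or replicate 1 of ZT16 or ZT18. Ghr in footprints and Foxo1 in total RNA gained a call without either pool of ZT10. Without the 6 pools that held pancreatic transcripts, 4 genes stayed called in footprints (Igfbp1, Igfbp2, Irs1 and Irs2) and 3 in total RNA (Igfbp1, Igfbp2 and Irs2). The fit without them also called fewer of all genes, 1194 in footprints and 2075 in total RNA, against 2524 and 3498 with all pools. After rescaling by library medians the calls of Irs1 in footprints and Igf1 in total RNA were lost (adjusted p = 0.05304 and 0.06208, limma), and without both pools of ZT18 those of Igf1 and Ghr in total RNA (0.07976 and 0.05317).

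Igf1 (ENSMUSG00000020053, chr10:87858265-87937042, + strand of GRCm38) encodes the circulating growth factor. Its lowest, median and highest library had 367, 456 and 564 RPKM in footprints and 212, 273 and 338 RPKM in total RNA. Footprints averaged 522 ± 59.5 RPKM at ZT18, the highest time point, and 388 ± 28.5 RPKM at ZT2, the lowest (SD, n = 2 each). Total RNA averaged 323 ± 20.9 RPKM at ZT22 and 237 ± 0.334 RPKM at ZT2. The fitted 24 h curve was higher in the dark phase by a small margin. It spanned 1.25-fold in footprints (95% interval 1.13 to 1.39, adjusted p = 0.00287, limma) and 1.24-fold in total RNA (1.10 to 1.39, adjusted p = 0.0145, limma), both under the minimum fold. Not every footprint mean followed the curve. In the light phase ZT10 averaged 520 RPKM, close to ZT18, and in the dark phase ZT20 averaged 445 RPKM, below the 453 RPKM of ZT0. The fitted peak was ZT15.8 ± 1.74 h in footprints and ZT18.5 ± 2.13 h in total RNA, where ± is a 95% interval. Without the 6 pools with pancreatic transcripts the adjusted p (limma) was 0.171 in footprints and 0.0854 in total RNA.

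Igfbp1 (ENSMUSG00000020429, chr11:7197782-7202546, + strand) encodes a binding protein whose transcription insulin suppresses, and its transcript moved more than that of any other gene of the list. At ZT22 the replicate pools had 270 and 343 RPKM in footprints and 162 and 170 RPKM in total RNA. At ZT0 they had 2.30 and 11.3 RPKM in footprints and 1.58 and 5.65 RPKM in total RNA. At ZT2 they had 78.7 and 223 RPKM in footprints and 43.4 and 158 RPKM in total RNA. Both pools of ZT2 were among the 6 with pancreatic transcripts, and the part of those transcripts in the ZT2 values was not tested.

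The highest time point of Igfbp1 was thus next to the lowest, in both assays, and the pools of ZT22, ZT0 and ZT2 did not overlap. From ZT4 to ZT10 footprints averaged 147, 112, 37.2 and 22.6 RPKM, so the transcript was high early in the light phase, apart from ZT0, and lower later. At ZT14, the other low point, footprints had 5.55 and 27.2 RPKM and total RNA 1.84 and 13.2 RPKM, and the lower of these pools lay between those of ZT0. The lower footprint library of ZT0 rested on about 29.99 reads of Igfbp1, and the lower total RNA libraries of ZT0 and ZT14 on about 18.99 and 10.0 reads, so counting error is large there.

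The contrast of ZT0 with ZT22 was chosen after the values had been seen. Igfbp1 fell by 5.87 on the log2 scale in footprints at ZT0 (SE 0.91, adjusted p = 0.0183, limma) and fell by 5.74 in total RNA (SE 0.91, adjusted p = 0.00144, limma). In that contrast 0.169% of all genes were called lower in footprints and 2.74% in total RNA, and 0.138% and 3.27% were called higher. The footprint call was lost without ZT0 replicate 1 (a difference of -4.74, adjusted p = 0.173, limma), without ZT22 replicate 1 (-6.04, 0.0759) and without ZT22 replicate 2 (-5.69, 0.111). The total RNA call held whichever single pool was left out, with differences of -6.63 to -4.854. Both calls also held without the 6 pools with pancreatic transcripts. None of those pools was of ZT0 or ZT22, so the differences could not change, and that fit says nothing of pancreatic tissue here. The difference of ZT2 minus ZT0 was 4.67 on the log2 scale in footprints (SE 0.91, adjusted p = 0.270, limma) and 4.74 in total RNA (SE 0.91, adjusted p = 0.196, limma), neither past the threshold. Of all 9445 genes, 0.0106% were called higher at ZT2 than at ZT0 in either assay.

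A 24 h curve described Igfbp1 poorly. Its fitted range was 3.48-fold in footprints (95% interval 0.949 to 12.8, adjusted p = 0.234, limma) and 4.27-fold in total RNA (1.18 to 15.5, adjusted p = 0.147, limma), and the curve took up 13.6% and 17.6% of the variance. With time as a factor the adjusted p (limma) was 0.00539 in footprints and 0.00311 in total RNA. Leaving out ZT0 replicate 1 alone gave a call by the 24 h curve, with a log2 range of 2.68 in footprints (adjusted p = 0.0120, limma) and 2.88 in total RNA (adjusted p = 0.00957, limma).

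**Figure D2:**
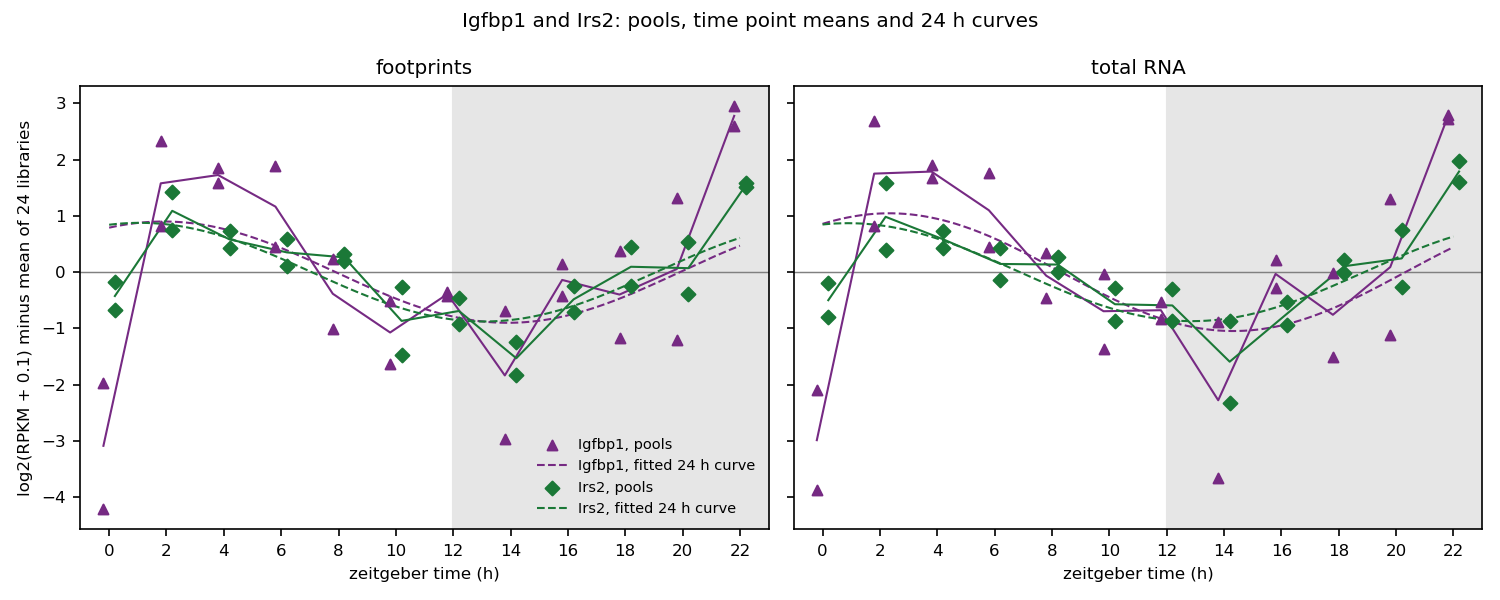
Igfbp1 (triangles) and Irs2 (diamonds) in footprints (left) and total RNA (right), as log2(RPKM + 0.1) minus the mean of 24 libraries, by pool and zeitgeber time, with solid lines through time point means and dashed fitted 24 h curves. The pools of ZT22 stand above the dashed curves and those of ZT0 below them for both genes.

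Igfbp2 (ENSMUSG00000039323, chr1:72824503-72852474, + strand), an abundant binding protein of liver, was low in the early dark phase. Footprints had 311 and 316 RPKM at ZT14 and 260 and 308 RPKM at ZT16, and these 4 libraries lay below all 20 others. Total RNA had 353 and 304 RPKM at ZT14 and 226 and 293 RPKM at ZT16, overlapping the pools of ZT18 (348 and 335 RPKM). Its highest time point was ZT22 in both assays, with 476 and 616 RPKM in footprints and 695 and 723 RPKM in total RNA. The 24 h curve spanned 1.33-fold in footprints (95% interval 1.08 to 1.64, adjusted p = 0.0611, limma) and 1.64-fold in total RNA (1.27 to 2.14, adjusted p = 0.00961, limma), and the total RNA curve, past the threshold, peaked at ZT3.6 ± 2.01 h. The 2 ranges were not shown to differ, since the interaction of assay and curve had an adjusted p of 0.860 (limma).

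Igfbp4 (ENSMUSG00000017493, chr11:99041244-99054392, + strand), a binding protein that holds back IGF action, was modestly higher from ZT12 to ZT18 in footprints. Its lowest, median and highest library had 406, 507 and 685 RPKM in footprints and 403, 547 and 633 RPKM in total RNA. Footprints averaged 626 ± 27.7 RPKM at ZT16 and 419 ± 18.7 RPKM at ZT4. The fitted range was 1.38-fold in footprints (95% interval 1.22 to 1.56, adjusted p = 0.000418, limma) and 1.35-fold in total RNA (1.20 to 1.52, adjusted p = 0.000670, limma), with peaks at ZT15.2 ± 1.43 h and ZT14.1 ± 1.48 h. Both fell short of the minimum fold.

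The receptor genes moved little. Ghr (ENSMUSG00000055737, chr15:3317760-3583492, - strand), the growth hormone receptor, had 91.8, 110 and 134 RPKM in its lowest, median and highest footprint library and 204, 227 and 279 RPKM in total RNA. Both assays were highest at ZT12, with 134 and 134 RPKM in footprints and 255 and 279 RPKM in total RNA. Its fitted range was 1.16-fold in footprints (95% interval 1.03 to 1.31, adjusted p = 0.0871, limma) and 1.16-fold in total RNA (1.06 to 1.27, adjusted p = 0.0201, limma). Insr (ENSMUSG00000005534, chr8:3122061-3279617, - strand), the insulin receptor, had 18.1, 21.4 and 27.3 RPKM in footprints and 30.3, 39.7 and 46.3 RPKM in total RNA. Its fitted range was 1.10-fold in both assays, with upper limits of 1.23 in each and adjusted p (limma) of 0.271 in footprints and 0.337 in total RNA.

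The docking proteins differed in size of change and in level. Irs1 (ENSMUSG00000055980, chr1:82233101-82291416, - strand) was highest at ZT0, with 5.81 and 5.18 RPKM in footprints and 9.94 and 9.56 RPKM in total RNA. It was lowest at ZT10, with 2.96 and 2.23 RPKM in footprints and 5.89 and 4.32 RPKM in total RNA, and the pools of these time points did not overlap. The 24 h curve spanned 1.46-fold in footprints (95% interval 1.20 to 1.78, adjusted p = 0.00920, limma), just under the minimum fold, and 1.75-fold in total RNA (1.48 to 2.07, adjusted p = 3.2e-05, limma). Its fitted peak was ZT0.17 ± 2.01 h in footprints and ZT23.6 ± 1.14 h in total RNA. In footprints Irs1 passed the minimum fold without 1 pool of ZT14 or of ZT22 (either replicate, log2 ranges 0.59 to 0.61), so its footprint call depends on the threshold. The interaction of assay and curve had an adjusted p of 0.801 (limma).

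Irs2 (ENSMUSG00000038894, chr8:10984681-11008458, - strand) was the gene called in both assays. At ZT22 it had 9.98 and 9.50 RPKM in footprints and 15.3 and 11.7 RPKM in total RNA. At ZT14 it had 0.856 and 1.33 RPKM in footprints and 0.682 and 2.04 RPKM in total RNA. The ratio of these time point means was 8.90 in footprints and 9.92 in total RNA, and the lowest libraries rested on about 59.9 footprint reads and 17.97 total RNA reads. The fitted range was 3.37-fold in footprints (95% interval 2.03 to 5.60, adjusted p = 0.00128, limma) and 3.34-fold in total RNA (1.91 to 5.85, adjusted p = 0.00360, limma). The fitted peak was ZT1.1 ± 1.60 h in footprints and ZT0.89 ± 1.77 h in total RNA.

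That fitted peak fell on a dip. At ZT0 Irs2 had 2.02 and 2.90 RPKM in footprints and 2.13 and 3.31 RPKM in total RNA, and at ZT2 it had 5.60 and 8.98 RPKM in footprints and 5.02 and 11.5 RPKM in total RNA. At ZT0, against ZT22, it fell by 1.97 on the log2 scale in footprints (SE 0.39, adjusted p = 0.0457, limma) and fell by 2.29 in total RNA (SE 0.46, adjusted p = 0.00554, limma), the contrast again chosen after seeing the values. The footprint call sat at the threshold and was lost without either pool of ZT0, ZT2, ZT4, ZT8, ZT12, ZT14, ZT16, ZT18 or ZT22, 18 of 24 in all. It was also lost without the 6 pools with pancreatic transcripts. Of all these only the pools of ZT0 and ZT22 enter the difference, which stayed at -1.97 without any of the others. The total RNA call was lost without ZT0 replicate 1 (a difference of -1.98, adjusted p = 0.0634, limma). With a 12 h curve added to the 24 h curve, the fitted peak of Irs2 moved to ZT21.8 in both assays. An annotated gene on the opposite strand, 9530052E02Rik, overlaps coding exons of Irs2, and since strand use in the authors' counting is not given in the sources used here, their reads cannot be told apart.

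Socs2 (ENSMUSG00000020027, chr10:95385362-95417180, - strand), the feedback inhibitor of the growth hormone receptor, differed widely between replicate pools, and its 24 h curve was not called in either assay. At ZT2 the replicates had 14.2 and 3.22 RPKM in footprints and 33.9 and 12.2 RPKM in total RNA. At ZT16 they had 3.72 and 11.1 RPKM in footprints and 16.4 and 27.3 RPKM in total RNA. The fitted range was 1.54-fold in footprints (95% interval 0.915 to 2.61, adjusted p = 0.330, limma) and 1.51-fold in total RNA (0.969 to 2.34, adjusted p = 0.261, limma). Without the 6 pools with pancreatic transcripts the total RNA curve was called, with a log2 range of 1.07 and an adjusted p of 0.0393 (limma).

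Foxo1 (ENSMUSG00000044167, chr3:52268336-52353221, + strand), the transcription factor that insulin restrains, was highest around the end of the light phase. At ZT12 it had 10.7 and 12.6 RPKM in footprints and 10.1 and 11.4 RPKM in total RNA. At ZT6 it had 8.41 and 7.27 RPKM in footprints, the lowest time point there, and at ZT0 6.11 and 6.44 RPKM in total RNA, the lowest in that assay. The fitted range was 1.30-fold in footprints (95% interval 1.13 to 1.48, adjusted p = 0.00840, limma) with a peak at ZT12.8 ± 1.99 h, and 1.31-fold in total RNA (1.07 to 1.59, adjusted p = 0.0675, limma). Reads of Foxo1 and of the overlapping opposite-strand gene Gm20402 cannot be told apart either, for the same reason as for Irs2.

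**Figure D3:**
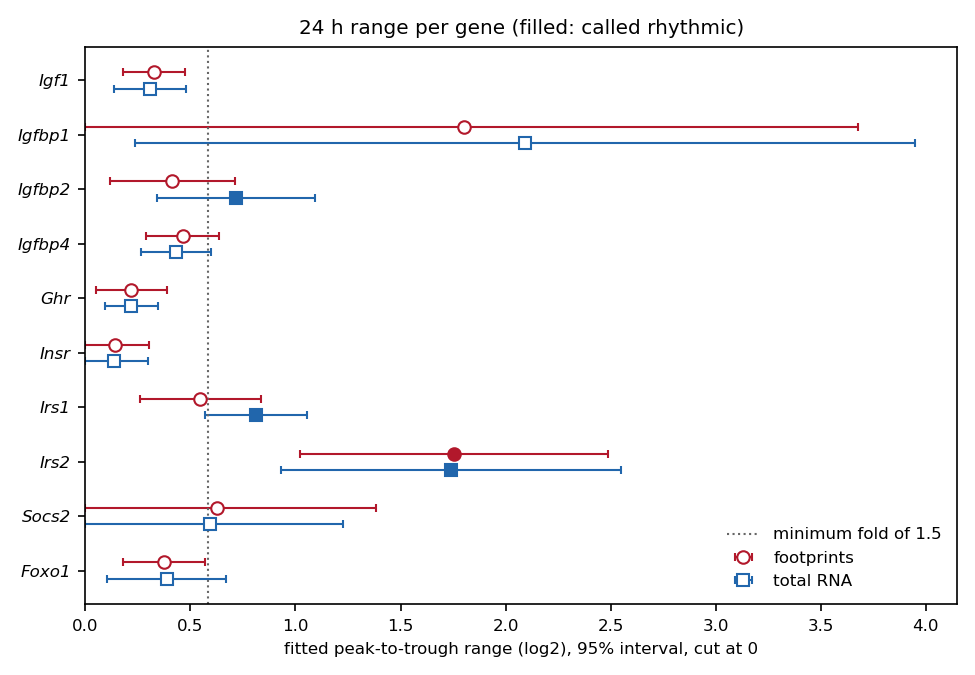
Fitted peak-to-trough range of the 24 h curve (log2) with its 95% interval, cut at 0, for each gene in footprints (circles, upper) and total RNA (squares, lower). Filled symbols are genes called rhythmic and the dotted line is the minimum fold of 1.5. Irs2 is filled in both assays, and the intervals of Igfbp1 are the widest.

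Set side by side, Igfbp1 and Irs2 had a median fitted fold of 3.43 in footprints and 3.81 in total RNA, and the other 8 genes 1.31 in footprints and 1.33 in total RNA. These medians are descriptions, since the pair was named with results known. The pair shared its time course: across the 12 time point means, Pearson's r between Igfbp1 and Irs2 was 0.826 in footprints and 0.844 in total RNA, points that share lysates between assays. Ranked by the mean of both correlations among all tested genes, Irs2 was number 5 for Igfbp1, and Igfbp1 was number 51 for Irs2. Of the other 8 genes, Igfbp2 came closest to Irs2 with a mean r of 0.60, and Ghr ran most against it with -0.55.

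The genes most like Igfbp1 were Zfp707 (mean r 0.93), Irf2bp2 (0.87), Tgif1 (0.86), Depp1 (0.85) and Irs2 (0.83). Those most like Irs2 were Dlc1 (0.94), Depp1 (0.92), Ttr (0.91), Tmem140 (0.91) and Ezh1 (0.91). Depp1 stood in both lists, which are not independent, since Igfbp1 and Irs2 were alike themselves. Its level showed the dip too, but it was picked for likeness over these same means, so this is no separate evidence. Depp1 had 92.4 and 68.1 RPKM in footprints at ZT22, 6.81 and 19.3 RPKM at ZT0, and 50.1 and 123 RPKM at ZT2. Those most like Igf1 were Eif3i (0.90), Rps10 (0.90), S100a13 (0.86), Pipox (0.85) and Rack1 (0.85), of which Eif3i, Rps10 and Rack1 encode parts of the translation machinery or the ribosome. Each of these correlations is over 12 time point means per assay and describes these libraries.

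Translation efficiency, taken as footprint level over total RNA level, separated the secreted factors from the receptors. The mean log2 ratio over 24 pools was 0.85 ± 0.29 (SD) for Igfbp1 and 0.77 ± 0.17 for Igf1, higher than 95.9% and 94.9% of tested genes, and it was above 0 in 24 of 24 pools for both. Foxo1 had 0.26 ± 0.18 and was above 0 in 23 of 24 pools. Igfbp4 (-0.03 ± 0.19), Igfbp2 (-0.04 ± 0.25) and Irs2 (-0.21 ± 0.26) lay between these and the median of all genes, -0.34. Below it were Insr (-0.87 ± 0.12), Irs1 (-0.98 ± 0.24) and Ghr (-1.04 ± 0.09), and Socs2 was lowest (-1.64 ± 0.42, higher than 7.54% of genes), each under 0 in all 24 pools. The docking proteins thus differed in efficiency, with Irs2 above Irs1 by more than the SD of either, and with similar footprint levels (mean 3.94 ± 2.54 RPKM for Irs2 and 3.73 ± 0.847 for Irs1). The ratio is relative between genes, because each assay was scaled on its own, and depends on the gene lengths behind RPKM.

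**Figure D4:**
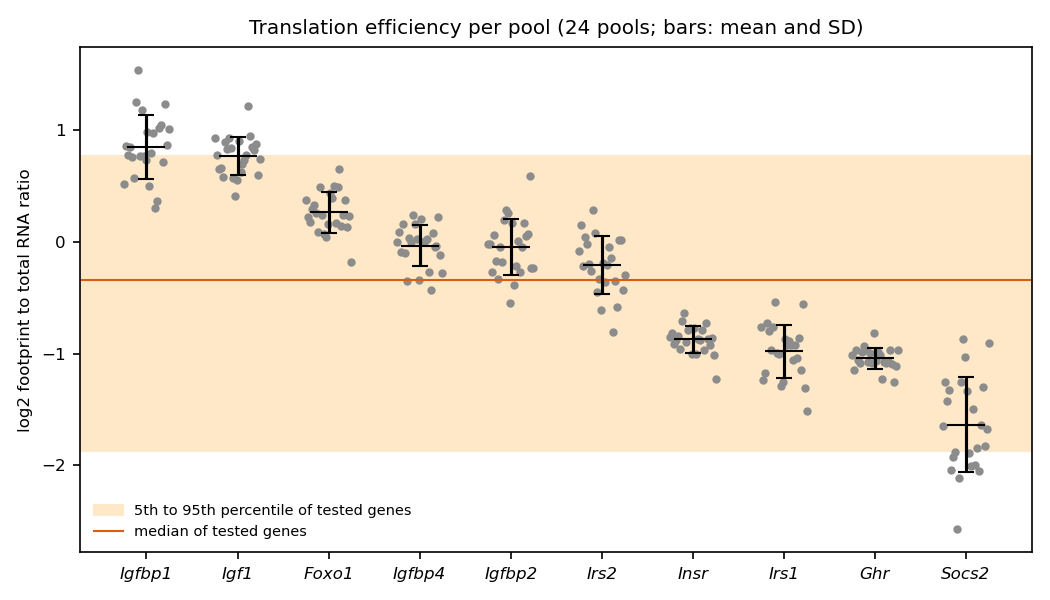
Log2 footprint to total RNA ratio of each gene, with a grey point for each of 24 pools, bars for the mean and SD, the line for the median of all tested genes and the band for their 5th to 95th percentile. Igfbp1 and Igf1 sit near the upper edge of the band and Socs2 near the lower edge.

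Efficiency of the 10 genes was not called rhythmic in any case. The interaction of assay and 24 h curve called 0 of 10 genes (limma, adjusted p under 0.05), with 0 of 10 at an unadjusted p under 0.05, where 0.371% of all genes were called. Fitting the ratio of each pool, which keeps both assays of a lysate together, also called 0 of 10, where 3.23% of all genes were called, and 1 gene, Socs2, had an unadjusted p under 0.05 (adjusted p = 0.0661, limma, log2 range 0.74). The peaks of Irs2 in the 2 assays differed by less than their intervals, and so did those of Irs1 and Igfbp4. Those of Igf1 lay further apart, ZT15.8 ± 1.74 h in footprints and ZT18.5 ± 2.13 h in total RNA. Its interaction of assay and curve had an adjusted p of 0.625 (limma).

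In level per length, footprints ranked Igfbp4 (mean of 24 libraries 516 ± 78.7 RPKM, SD), Igf1 (463 ± 52.0) and Igfbp2 (442 ± 83.3) first, then Ghr (112 ± 12.2), Igfbp1 (81.5 ± 90.6), Insr (21.6 ± 2.04), Foxo1 (9.33 ± 1.41), Socs2 (6.99 ± 3.61), Irs2 and Irs1. The first 3 lay within their spread of each other, and so did Ghr and Igfbp1, Foxo1 and Socs2, and Irs2 and Irs1. Total RNA ranked Igfbp4 (527 ± 73.4 RPKM) and Igfbp2 (465 ± 128) above Igf1 (272 ± 33.5) and Ghr (231 ± 20.0), then Igfbp1 (46.2 ± 51.8), Insr (39.6 ± 3.64), Socs2 (21.3 ± 9.30), Foxo1 (7.80 ± 1.55), Irs1 (7.49 ± 1.75) and Irs2 (4.71 ± 3.51). In total RNA Igfbp4 and Igfbp2 lay within their spread, and so did Igfbp1 and Insr and the last 3.

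Pools of the same time point differed far more for 3 genes than for most genes. Within time points the SD of log2 values was 1.05 in footprints and 1.06 in total RNA for Igfbp1, higher than for 99.5% and 99.2% of tested genes. For Socs2 it was 0.68 and 0.57 (98.7% and 96.7%), and for Irs2 0.44 and 0.52 (95.9% and 95.7%). The median gene had 0.17 in footprints and 0.18 in total RNA, and Igf1, with 0.08 and 0.12, lay below it. The largest difference between replicates of Igfbp1 was 5.70-fold in footprints, at ZT20 (19.2 and 110 RPKM), and 6.83-fold in total RNA, at ZT14 (1.84 and 13.2 RPKM).

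These differences recurred in both assays of a lysate. Replicate 1 was higher or lower than replicate 2 in the same direction in footprints and total RNA at 12 of 12 time points for Igfbp1 and for Irs2, at 9 of 12 for Socs2 and at 7 of 12 for the median gene. Full accord at 12 of 12 was found for 1.31% of all genes. Irs2 differed in the direction of Igfbp1 at 9 of 12 time points in each assay, against 6 of 12 for the median gene. G6pc, the glucose-releasing enzyme of liver and another FOXO target, did so with Irs2 at 11 of 12 time points and with Igfbp1 at 10 of 12 in both assays, a comparison chosen after seeing the values. Counts for other FOXO targets were lower: Pdk4 differed in the direction of Igfbp1 at 9 of 12 time points in each assay, Depp1 at 8 in footprints and 9 in total RNA, and Pck1 at 6 in footprints and 9 in total RNA. Depp1 differed in the direction of Irs2 at 7 time points in footprints and 8 in total RNA. At ZT4, ZT6, ZT8 and ZT16, where 1 of 2 pools held pancreatic transcripts, Igfbp1 was lower in that pool in both assays at 4 of 4 time points and Irs2 at 3 of 4. The part of pancreatic tissue in these differences was not tested.

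**Figure D5:**
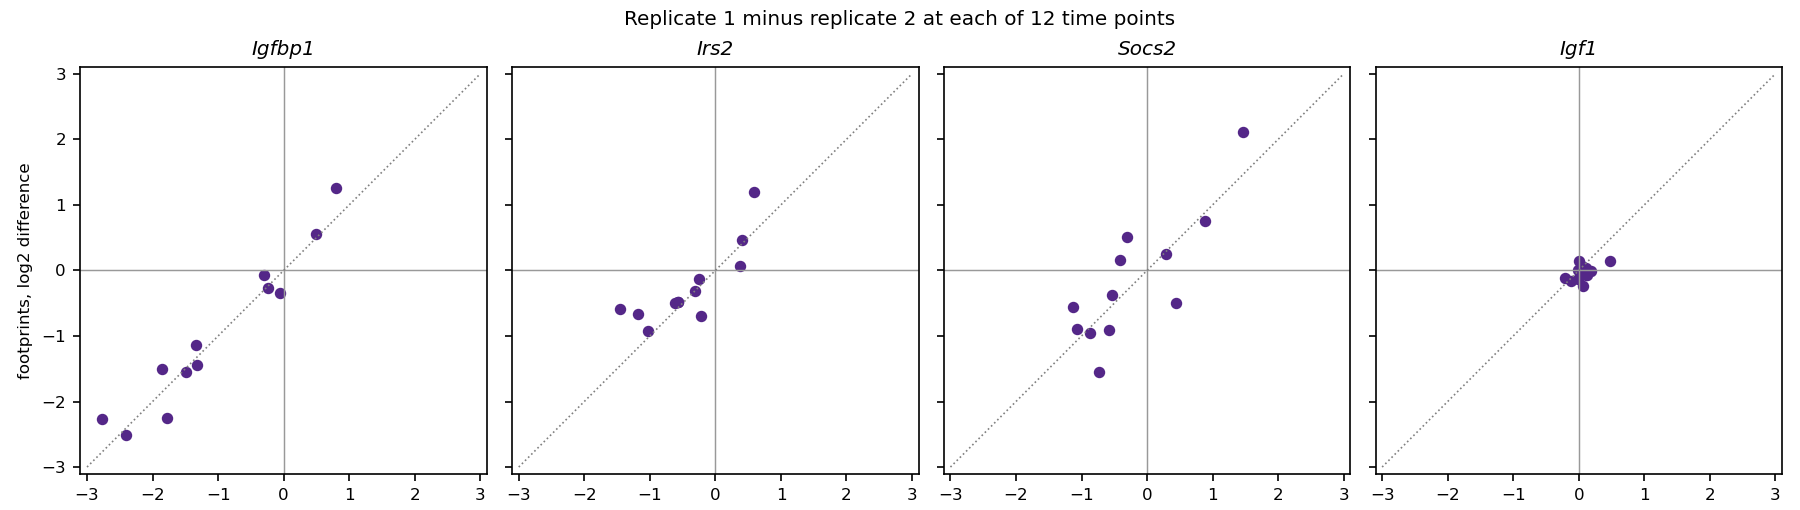
Log2 difference of replicate 1 minus replicate 2 at each of 12 time points, in footprints (vertical axis) against total RNA (horizontal axis), for Igfbp1, Irs2, Socs2 and Igf1, with the dotted line marking equal differences. All points of Igfbp1 and Irs2 lie in the part of the panel where both assays differ in the same direction, and those of Igf1 lie near 0.

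Other genes of the axis were read from lists, where 16.7% of all tested genes were called in footprints and 15.8% in total RNA, or 45.0% and 43.1% without the minimum fold. Of 6 tested genes of the IGF system outside the 10, 0 were called in footprints (3 at an adjusted p under 0.05 without the minimum fold, limma) and 2 in total RNA, Igfbp5 (2.67-fold) and Igfbp6 (1.91-fold), named after their values were seen. Igfbp5 and Igfbp6 were near the filter of 1 RPKM in total RNA, with medians of 1.37 and 1.59 RPKM. Igfals, whose product carries IGF1 in plasma, spanned 1.33-fold and 1.39-fold (footprints, total RNA), peaking at ZT18.4 and ZT20.2, short of the minimum fold. Igf1r, the IGF1 receptor, averaged 0.374 RPKM in footprints and 1.12 RPKM in total RNA and was left out of the tests by the filter of 1 RPKM in footprints. No gene listed in either assay carried the symbol Igf2.

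Of 31 tested genes of insulin receptor signalling, 5 were called in footprints and 3 in total RNA, shares no larger than those of all tested genes (16.7% and 15.8%). The 3 called in both were Trib3, a pseudokinase that binds AKT (5.68-fold and 5.29-fold in footprints and total RNA, peaks at ZT6.8 and ZT7.2), Pik3r1, the regulatory subunit of PI3 kinase (1.80-fold and 1.73-fold, ZT14.2 and ZT14.6), and Phlpp1, a phosphatase of AKT (1.55-fold and 1.56-fold, ZT3.7 and ZT3.5). Trib3 was low, with medians of 1.53 RPKM in footprints and 1.31 RPKM in total RNA and a lowest library of 0.258 RPKM in each. Enpp1 and Grb14, named after their values were seen, passed in footprints and not in total RNA, and the interaction with assay had an adjusted p of 0.562 and 0.839 (limma). Akt2, the main AKT of liver, spanned 1.12-fold by footprints and 1.02-fold by total RNA (adjusted p = 0.0690 and 0.929, limma).

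Of 16 tested genes of growth hormone and STAT5 signalling, 2 were called in both footprints and total RNA (Stat5b and Stat5a). These 2 were the only calls in total RNA, where 15.8% of all tested genes were called. Without the minimum fold, 6 of 16 passed in footprints and 4 in total RNA, against 45.0% and 43.1% of all genes. These shares were no larger than those of all tested genes. Stat5b, the signal carrier of the growth hormone receptor, spanned 2.18-fold in footprints (95% interval 1.89 to 2.51, peak ZT1.4) and 2.11-fold in total RNA (1.81 to 2.46, peak ZT1.1). Stat5a spanned 2.01-fold and 1.98-fold with peaks at ZT0.32 and ZT23.0. Of the known STAT5 targets above, Igf1 had its fitted peaks in the dark phase and Socs2 was not called.

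Cish, another feedback gene induced by STAT5, also differed widely between replicate pools. At ZT12 it had 1.71 and 33.9 RPKM in footprints and 1.53 and 10.9 RPKM in total RNA. The replicates of Cish and Socs2 differed in the same direction at 7 of 12 time points in footprints and 4 of 12 in total RNA.

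Of 18 tested FOXO targets, a list that holds Igfbp1, Irs2 and Insr as well, 5 were called in footprints and 5 in total RNA, 4 of them in both, against 16.7% and 15.8% of all tested genes. Pdk4, which spares glucose by blocking pyruvate dehydrogenase, peaked at ZT23.2 in both assays, spanning 8.32-fold in footprints and 6.59-fold on the RNA side. Gadd45a (2.84-fold and 1.99-fold) and Pck1, the rate-limiting enzyme of gluconeogenesis (2.42-fold and 2.07-fold), peaked at ZT10.1 and ZT10.2, and at ZT9.3 and ZT9.2. G6pc was not called, at 1.78-fold by footprints and 1.90-fold by total RNA (adjusted p = 0.227 and 0.135, limma), and its highest time point was ZT22, with 606 and 380 RPKM in footprints and 559 and 365 RPKM in total RNA. The called FOXO targets therefore did not share a time of day. In footprints the curves of Pdk4 and Irs2 peaked around lights on (ZT23.2 and ZT1.1), and both genes were highest at ZT22 in both assays. The curves of Pck1 and Gadd45a peaked late in the light phase, and Gadd45a was lowest at ZT22. Pdk4 footprints fell from 26.2 and 13.2 RPKM at ZT22 to 4.09 and 4.67 RPKM at ZT0. At ZT2 they were 8.18 and 11.5 RPKM. Footprints of G6pc were 77.4 and 184 RPKM at ZT0 and 187 and 341 RPKM at ZT2.

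Of 14 tested genes that insulin induces in liver, 12 were called in footprints and 12 in total RNA, 11 of them in both, against the same 16.7% and 15.8% of all genes, with a median fitted fold of 2.38 in footprints and 2.26 in total RNA. Thrsp, a regulator of lipid synthesis, spanned 9.94-fold and 8.93-fold in the 2 assays (footprints first), and Elovl6, a fatty acid elongase, 3.55-fold and 3.24-fold. Thrsp peaked at ZT15.8 in both assays and Elovl6 at ZT14.6 and ZT14.7, close to ZT14, where Irs2 was lowest and Igfbp1 was low. Ppp1r3c, a glycogen-targeting subunit of protein phosphatase 1 (5.59-fold and 5.65-fold), peaked at ZT23.3, and Mlxipl, the glucose-sensing factor ChREBP (1.79-fold and 1.501-fold), at ZT3.0 and ZT1.8. Genes of this list thus peaked at opposite times of day.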

How the data were processed

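Ribosome footprints and total RNA were measured in 24 liver lysate pools (48 libraries). The authors deposited RPKM values, with a table of Ensembl genes for each library. Per the submitters' processing notes, the authors used Bowtie2 2.2.1, TopHat2 2.0.11 and TopHat. Per the same submitters' processing notes, the authors also used cutadapt, edgeR, Cufflinks 2.2.1 and CASAVA 1.82, and the builds were mm10 and GRCm38.p2. How reads were counted, by strand or not, and how libraries were scaled is not given in the sources used here. Depth was read from the values: multiplied by coding length, 75.3% to 82.1% of the low footprint values and 71.9% to 80.7% of the low total RNA values were whole multiples of a library's smallest step (tolerance 0.04). Read numbers are therefore approximate. Positions and opposite-strand overlaps came from GENCODE M21 on GRCm38.

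From the deposited RPKM, 9445 genes averaging 1 RPKM or more in each assay entered the tests as log2(RPKM + 0.1), a scale that understates changes of low genes, with limma 3.58.1 in R 4.3.3 (mean-variance trend) and Benjamini-Hochberg adjustment. Fits were a cosine and sine of 24 h, 12 time points as a factor, and the interaction of assay and curve. Tables used Python 3.11.15, numpy 2.4.6 and pandas 2.3.3, and figures matplotlib 3.10.9. Scripts were tested on simulated data. Replicates are separate pools, and replicate numbers pair nothing across time points. The 2 assays share each lysate. Their deviations from time point means correlated across genes with r of 0.160 to 0.683, above 0.1 at 12 of 12 time points.

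The genes described and the lists were chosen with earlier results of these data known. All 10 genes are named. One call of a listed gene, in footprints alone, is not reported here. Of the lists, up to 4 genes with the smallest adjusted p in footprints among those called in both assays are named, plus Igfals, Igf2, Igf1r, Stat5b, Cish, Akt2, Pck1 and G6pc, and for Igfbp1, Irs2 and Igf1 the 5 genes with the highest mean r. Promoter sequences are from RefSeq (GRCm38.p6). Insr and Socs2 are named without one.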

Additional observations from a re-analysis of the deposited data

How the results depend on the processing

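Pseudocounts of 1 and 0.01, no filter on low values and rescaling by library medians kept 1 of the 10 genes called in footprints, 3 in total RNA and 0 in efficiency, by the 24 h curve. With time as a factor, rescaling lost Irs1 in footprints (adjusted p = 0.05304, limma) and Igf1 in total RNA (0.06208). With a minimum of 5 RPKM, Irs1 and Irs2 were not tested, so no count was made. Without the minimum fold the counts were 5 in footprints and 6 in total RNA. Adding a 12 h curve gave 3 in footprints, with Igfbp2 (log2 range 0.72, adjusted p = 0.00358, limma) and Irs1 (0.76, 0.00609) joining Irs2. It also moved the fitted peaks of Igfbp2 to ZT23.0 and of Irs1 to ZT0.7 in total RNA. Leaving out each pool in turn gave 1 to 2 genes in footprints, 3 to 4 in total RNA, 0 in efficiency, and 5 to 7 in footprints and 5 to 8 in total RNA with time as a factor. Without the pools with pancreatic transcripts the last fit called 4 in footprints and 3 in total RNA. For ZT0 against ZT22, leaving out each pool gave 0 to 2 genes in footprints and 1 to 3 in total RNA, and leaving out both pools of ZT18, or those with pancreatic transcripts, gave 1 in footprints. Neither the pools of ZT18 nor those with pancreatic transcripts include a pool of ZT0 or ZT22, so leaving them out could not change the size of that contrast. A time point with 1 pool left was assumed to vary like the others. The cause of these shifts was not tested, beyond the fewer samples in such fits.

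The replicate block, which fits the footprint to total RNA ratio of each lysate, called 0 of 10 genes in efficiency, as did the fit without the pairing, and changed no call of the 10 genes. No difference of Igfbp1 or Irs2 between ZT0 and ZT22 changed sign, and no fitted peak of a called gene moved far enough to reverse its curve. Reversal was not scored for curves that were not called. Depth limits Igfbp1 and Irs2 at ZT14 most, where total RNA rested on about 10.0 and 17.97 reads in replicate 1.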
